A study of Mus musculus with 10 samples.

Results

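Heat shock proteins and their cochaperones were taken by symbol: every gene of the deposited table whose symbol began with Hspa, Hspb, Hspd, Hspe, Hsph or Hsp90, or was a numbered Dnaja, Dnajb, Dnajc, Cct or Bag gene. This gave 89 genes among the 25233 entries with a symbol. They were divided by location and role into 11 cytosolic inducible chaperones, 10 cytosolic constitutive Hsp70, Hsp110 and Hsp90 genes, 7 other small heat shock proteins and their relatives, 22 cytosolic and nuclear J proteins, 15 genes of the endoplasmic reticulum, 10 mitochondrial genes, 9 genes of the CCT chaperonin and 5 other BAG cochaperones. Hspbp1, which is none of these 3 kinds, was placed with the Hsp70, Hsp110 and Hsp90 genes.

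RNA sequencing was performed on 10 libraries of hepatic stellate cells (HSCs), the retinoid-storing cells of the liver, purified from C57BL/6J mice by enzymatic digestion, density gradient and fluorescence sorting. The 5 hypHSC libraries came from hypertrophied, lipid-laden HSCs of mice on a choline-deficient, L-amino acid-defined, high-fat diet (CDAHFD), sorted on their green fluorescence, with 13 weeks of diet and 19 weeks of age for hypHSC 1 and 2, and 12 weeks of diet and 18 weeks of age for hypHSC 3 to 5. The 5 qHSC libraries came from quiescent HSCs of mice on the standard diet, aged 36 weeks (qHSC 1, 2 and 5) or 34 weeks (qHSC 3 and 4). Diet, age, digestion and sorting gate differ together between the groups and cannot be told apart. The hypHSC preparations were chosen for RNA quality from more preparations than mice, so libraries may share a mouse, n counts preparations, and p-values measure only the spread between these.

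The libraries held 30534719 to 47317026 reads on genes with a symbol, and hypHSC 5 and hypHSC 4 stood apart with the fewest genes detected, 14028 and 14949 against 15703 to 16634 in the other libraries. All 12 quiescent stellate cell markers were lower in hypHSCs, where their summed level was 10004 to 28732 normalized counts against 872547 to 1543300 in qHSCs, with Gfap at 0 in hypHSC 4 and 5 and Ngfr at 0 in hypHSC 5. The labels call both groups hepatic stellate cells. These 12 genes were listed for the quiescent state, but they include Lrat, Des and Pdgfrb, which the study names as typical of stellate cells. Such a list cannot tell a change of state from fewer stellate cells, and other genes of stellate cells were not examined here. Of 12 macrophage markers, 10 were higher in hypHSCs, with a summed level of 1038780 to 1445820 normalized counts against 5629 to 125446 in qHSCs, and none was at 0 in any library. All 4 tested of 6 cholangiocyte markers and all 4 tested of 8 neutrophil markers were higher in hypHSCs too, with summed levels of 161426 to 336684 against 30.8 to 386.6 and of 1861 to 8040 against 12.0 to 391.9. The first of these sums was almost wholly Spp1, which macrophages also express. Of 9 tested sinusoidal endothelial markers 2 were higher and 4 lower (summed 761.6 to 1285 against 1657 to 3082), and of 4 tested lymphocyte markers 1 was higher (257.8 to 689.9 against 10.2 to 229.3). Of 10 hepatocyte markers 1 was lower, and their sum was 12290 to 117175 in hypHSCs, highest in hypHSC 5, and 23836 to 81903 in qHSCs. Mitochondrially encoded genes took 2.21% to 12.8% of the reads in hypHSCs and 1.25% to 1.61% in qHSCs. The part of these differences in the chaperone results was not tested. In bulk samples, fewer cells of a type and less RNA per cell cannot be told apart.

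Chaperones bind proteins that are not yet folded or have lost their fold. Hsp70 proteins do so in cycles of ATP hydrolysis that J proteins start and nucleotide exchange factors (among them Hsp110 and several BAG proteins) end. Hsp90 proteins act later on nearly folded clients, and small heat shock proteins hold unfolded clients without ATP. Part of the cytosolic set is switched on by the transcription factor Hsf1 when cells are heated or stressed, which includes tissue digestion and sorting, whereas the endoplasmic reticulum (ER) and mitochondria each keep their own Hsp70, Hsp60 or Hsp90 proteins under separate stress responses. In stellate cells the ER set is known above all for folding secreted and matrix proteins.

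Hsf1 binds alternating GAA units, and the promoters of the genes below show how these units lie in members of different classes. In the GRCm39 genome with GENCODE vM39 start sites, the 107 bases of chr1:55127184-55127290 (plus strand) between the divergent start sites of Hspd1 and Hspe1, the mitochondrial Hsp60 and Hsp10 genes, hold 2 overlapping runs of 3 alternating units (capitals).

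Hspe1 and Hspd1: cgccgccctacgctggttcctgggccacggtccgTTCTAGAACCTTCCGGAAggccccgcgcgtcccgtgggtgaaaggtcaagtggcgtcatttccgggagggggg

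The stress-inducible Hsp70 genes Hspa1a and Hspa1b lie on chromosome 17, at chr17:35188171-35191133 and chr17:35175405-35178214. The 150 bases before their start sites, chr17:35191133-35191282 and chr17:35178215-35178364 (minus strand), differ at 1 base and carry 1 pair of units each (capitals).

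Hspa1a: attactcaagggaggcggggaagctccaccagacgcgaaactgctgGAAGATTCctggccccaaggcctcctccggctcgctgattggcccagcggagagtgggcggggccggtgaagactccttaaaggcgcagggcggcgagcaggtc

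Hspa1b: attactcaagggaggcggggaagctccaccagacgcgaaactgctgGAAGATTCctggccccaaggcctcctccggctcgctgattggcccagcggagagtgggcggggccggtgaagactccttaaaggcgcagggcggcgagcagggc

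The J protein genes Dnajb1 and Dnajb4 carry the same kind of pair (capitals) just after their start sites, at chr8:84334839-84334868 (plus strand) and chr3:151916619-151916648 (minus strand).

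Dnajb1: cgggaggggcgGAAGGTTCtggagggctgg

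Dnajb4: gcgcccaGAACCTTCcacgcgcctgggtcg

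Hspa5, the Hsp70 of the ER, is shown with the 150 bases before its start site, chr2:34661954-34662103 (plus strand), where the capitals mark an ER stress element.

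Hspa5: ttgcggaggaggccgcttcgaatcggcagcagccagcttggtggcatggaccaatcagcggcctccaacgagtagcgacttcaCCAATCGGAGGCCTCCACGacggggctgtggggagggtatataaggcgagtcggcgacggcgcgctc

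Windows of 250 bases before to 50 bases after the start site were searched on both strands, for 79 of the 80 members tested and for 12975 genes tested in all. A run of 3 units (GAANNTTCNNGAA) was found in 0.455% of all promoters and, among the members, in Hspe1 and Hspd1 only. The pair GAANNTTC was found in 6.15% of all promoters and in 9 members, 6 of which are cytosolic inducible genes (Hspa1a, Hspa1b, Dnaja1, Dnajb1, Dnajb4 and Hspb1), and the pair TTCNNGAA in 7.58% of all promoters and in 7 members. Every run of 3 units also holds both pairs. The ER stress element, CCAAT and CCACG separated by 9 bases, was found in 0.146% of all promoters and in the members Hspa5, Hsp90b1 and Dnajc3. These are matches of letters in a window, and binding was not measured.

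Hspa8, the constitutive Hsp70 of the cytosol, had the highest level of all members per length, 74769 ± 11982 normalized counts per kilobase of transcript in hypHSCs and 58185 ± 16248 in qHSCs (SD, n = 5). Normalized counts are read counts divided by a size factor for each library. Hspa5, Hsp90b1 (the Hsp90 of the ER), Hsp90ab1 (the constitutive cytosolic Hsp90) and Hspa1a held the next places in both groups. These 5 genes made up 71.9% of the summed level per kilobase of 88 members in hypHSCs and 74.9% in qHSCs. The order of Hspa5, Hsp90b1 and Hsp90ab1 differed between the groups, by less than their SD in hypHSCs. The 89 genes together took 1.53% to 2.12% of the reads on symbols in hypHSCs and at least 1.95% in each of the qHSCs.

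Of the 89 members, 80 had at least 10 normalized counts in at least 5 libraries and were tested. A gene was called when its log2 fold change (hypHSC minus qHSC) was at least 1 in size and its adjusted p at most 0.05 (limma on log2(normalized count + 1), Benjamini-Hochberg over 14630 genes). By this rule 11 members were higher in hypHSCs and 9 were lower, which is 13.8% and 11.2% of those tested, against 17.8% and 21.7% of all genes tested. The median log2 fold change of the tested members was -0.02, against -0.20 for all genes tested, and the median of its absolute size was 0.50 against 1.02. Of the 20 called members, 16 had groups that did not overlap, and 15 were called in each of 10 fits that left out 1 library. The same counts were not made over all called genes, so whether the members differ from other called genes in this is not known. Without hypHSC 4 and 5, an alternative chosen after seeing the data, 8 members were higher and 10 lower, beside 2786 and 3130 of all genes tested. Counts moved with the scaling: with libraries scaled to equal totals 6 were higher and 15 lower, and scaled on Hprt, Pgk1 and Actb 3 were higher and 28 lower, because these scalings lower every log2 fold change by 0.36 and 0.94. All genes tested moved likewise, from 2602 higher and 3177 lower to 2013 and 4243 at equal totals. Scaled on Hprt, Pgk1 and Actb, 1472 of all genes tested were higher and 7020 lower. A further 7 members had an adjusted p of at most 0.05 with a change under the fold, with Hspe1 and Dnajc5 on the higher side and Dnajc8, Dnajc24, Dnajc30, Bag5 and Hspa13 on the lower. Another 6 were past the fold without the adjusted p, all on the lower side (Cct6b, Dnajb5, Dnajc16, Dnajc27, Hspb6 and Hspbp1). Of the 9 members not tested, Hspb3, Dnajb8 and Dnajc5g had no read in any library and Dnajc5b never exceeded 3 reads, and Dnajb3, Dnajc6, Hspb7, Hspb9 and Cct8l1 were too low in too many libraries.

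**Figure D1:**
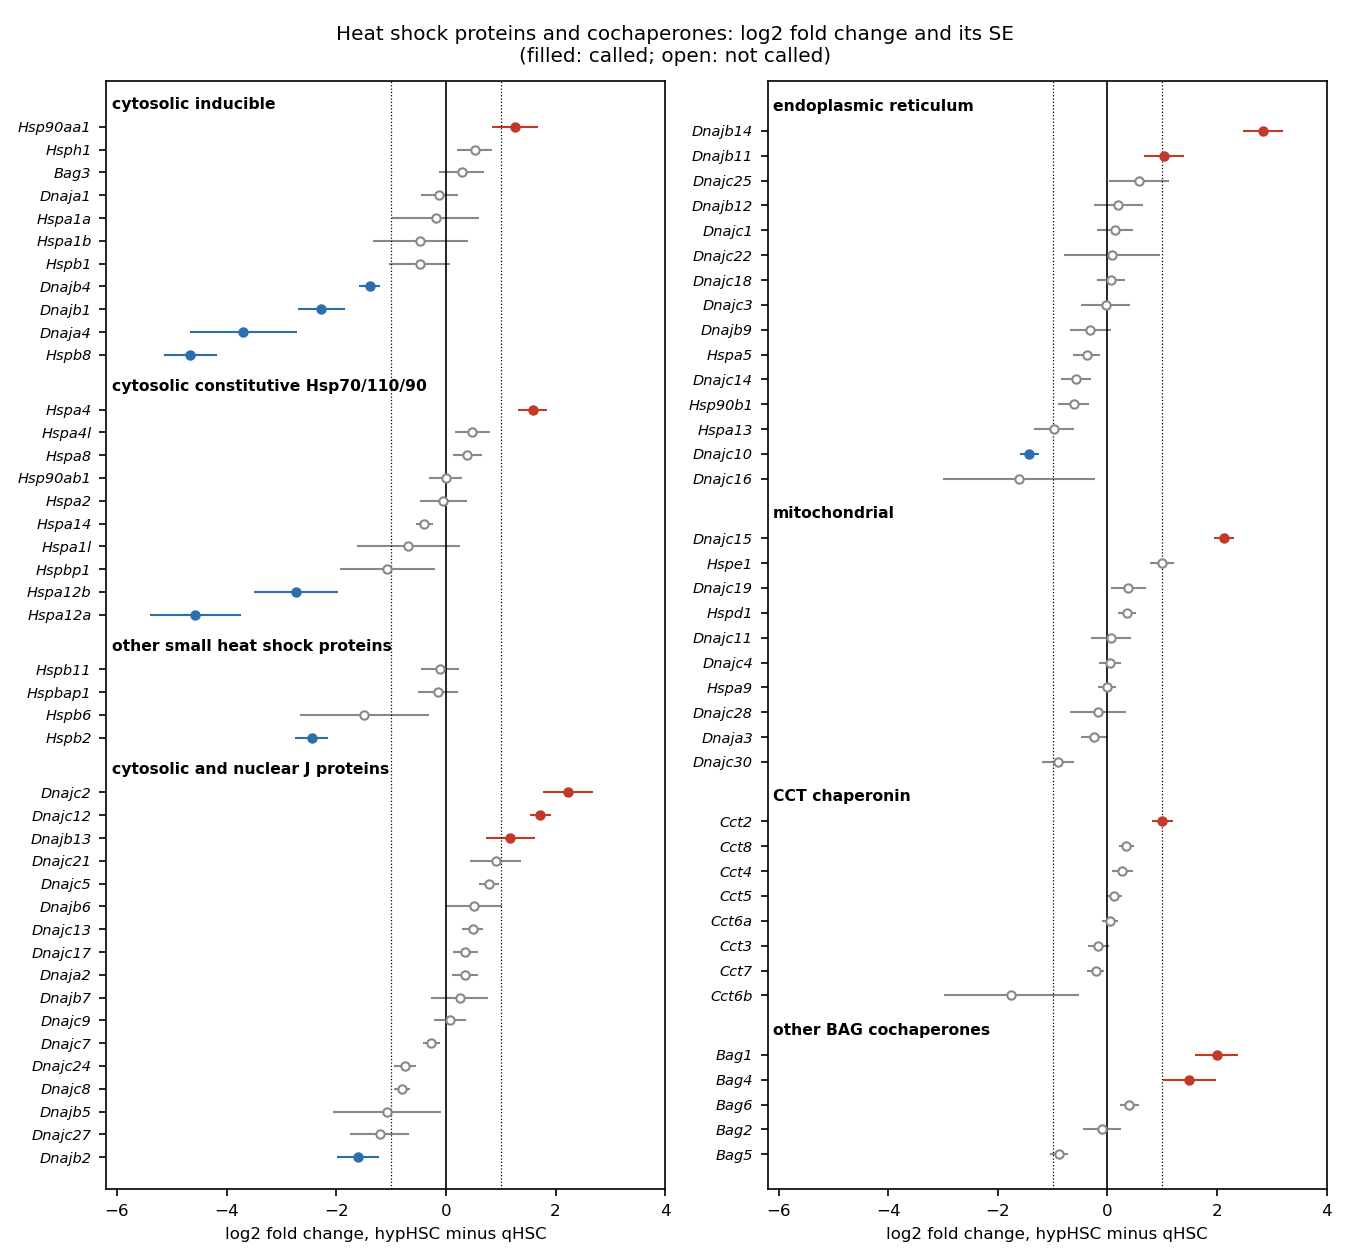
Log2 fold change (hypHSC minus qHSC, horizontal axis, points) and its SE (bars) for the 80 members tested, by class, with dotted lines at a log2 fold change of 1 in each direction. Filled points are the 11 members called higher (red) and the 9 called lower (blue), and Hspb8 at -4.66 and Dnajb14 at 2.84 mark the ends.

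In the cytosolic inducible class, 1 of 11 members rose (Hsp90aa1), 4 fell (Hspb8, Dnaja4, Dnajb1 and Dnajb4) and 6 were not called, with a median log2 fold change of -0.46. Hspa1a held 41387, 115623, 66466, 21424 and 13302 normalized counts in hypHSC 1 to 5 and 68196, 81336, 6657, 40626 and 116671 in qHSC 1 to 5. The highest library of each group was near the other, and the ranges overlapped almost wholly. Its log2 fold change was -0.19 (SE 0.79, limma adjusted p = 0.86). In Hspa1b the values were 16232, 54232, 30453, 7021 and 3388 in hypHSCs and 30731, 35943, 2935, 18588 and 53001 in qHSCs. Its ranges overlapped as widely (log2 fold change -0.46, SE 0.87, limma adjusted p = 0.69).

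Both Hsp70 genes ranked the libraries in the same order, from hypHSC 2 down to hypHSC 5 and from qHSC 5 down to qHSC 3. Hspa1l, another Hsp70 gene of the same locus that is known for its expression in testis, had this order as well, at 84.7 to 3012 normalized counts in hypHSCs and 242 to 3161 in qHSCs, though 70.9% of its stretches of 59 bases, the read length, occur also in Gm10501. The transcripts share sequence: 56.5% of the stretches of 59 bases in Hspa1a occur also in Hspa1b, so reads could be split between them. Summed, Hspa1a and Hspa1b stood at 57619, 169855, 96919, 28444 and 16690.2 normalized counts in hypHSCs and at 98928, 117279, 9592, 59214 and 169672 in qHSCs. The log2 fold change of the sum was -0.26, with a 95% interval of -2.04 to 1.52 (SE 0.81, limma adjusted p = 0.81, exact two-sided permutation p = 0.762). The sum turned to 0.16 without hypHSC 5, to 0.09 without qHSC 5 and to 0.61 without hypHSC 4 and 5. Within groups the spread was wide: the highest hypHSC held 10.2 times the lowest and the highest qHSC 17.7 times the lowest. The SD of log2 values of Hspa1a exceeded that of 93.1% of all genes tested in qHSCs and of 73.8% in hypHSCs. Hspa1b stood at 44.1% to 45.8% of the level of Hspa1a in all 5 qHSCs, and at 25.5% to 46.9% in hypHSCs, lowest in hypHSC 5 and hypHSC 4.

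The other inducible genes did not all follow this order. Hsph1, an Hsp110 that recharges Hsp70, was at 2064, 2792, 1810.4, 3859.6 and 3467 normalized counts in hypHSCs and at 1432, 2358, 974, 2497 and 2748 in qHSCs. Its lowest library was again qHSC 3, whereas hypHSC 4 and 5, the lowest for Hspa1a, were the highest for Hsph1. The groups overlapped (log2 fold change 0.53, SE 0.32, limma adjusted p = 0.20).

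Hsp90aa1, the stress-inducible cytosolic Hsp90, rose 2.39-fold. It measured 32294, 27401, 14710.0, 33714 and 89748 normalized counts in hypHSCs and 11125, 14791, 9292, 16138 and 20342 in qHSCs. Of the hypHSCs, 3 lay between 27401 and 33714, hypHSC 5 lay far above them, and hypHSC 3 fell within the range of the qHSCs. The log2 fold change was 1.26 (SE 0.41, limma adjusted p = 0.026). This call was lost without hypHSC 5 (0.90), where the change was under the fold, without qHSC 1 (1.18, adjusted p = 0.060), without qHSC 3 (1.12, adjusted p = 0.065) without hypHSC 4 and 5 (0.77, adjusted p = 0.057), and with the hypHSCs of 12 weeks of diet only (1.36, adjusted p = 0.058). It was also lost at equal totals (0.90, adjusted p = 0.051) and when scaled on Hprt, Pgk1 and Actb (0.32, adjusted p = 0.60). Of the stretches of 59 bases in its transcript, 52.4% occur also in other genes, mostly a pseudogene.

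Hspb8, a small heat shock protein that pairs with Bag3 to hand misfolded clients to autophagy, fell far, with a log2 fold change near the -4.57 of the much less abundant Hspa12a. Its normalized counts were 392.1, 190.5, 101, 125 and 39.3 in hypHSCs and 3494, 3463, 2959, 3045 and 3728 in qHSCs. Every hypHSC lay below every qHSC, and the qHSCs differed by no more than 1.26 times whereas the hypHSCs spread over 9.97 times, with hypHSC 5 lowest. The gene, on chromosome 5 at chr5:116546550-116560923, had a log2 fold change of -4.66 (SE 0.48, limma adjusted p = 1.8e-05). Bag3 itself was at 1116, 1335, 794, 335 and 322 normalized counts in hypHSCs and at 627, 757, 379, 534 and 494 in qHSCs. Here hypHSC 1 to 3 stood above all qHSCs and hypHSC 4 and 5 below all of them (log2 fold change 0.29, SE 0.42, limma adjusted p = 0.60). Within a library, Bag3 was 2.68 to 8.19 times Hspb8 in hypHSCs and 0.128 to 0.218 times Hspb8 in qHSCs, a ratio that no scaling of the libraries changes.

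Dnajb1, the J protein that drives Hsp70 in the heat shock response, fell to 0.207 of its level in qHSCs. It was at 1075, 1467, 938, 1087 and 639.8 normalized counts in hypHSCs and at 4201, 5334, 1686, 6314 and 11315 in qHSCs. The groups did not overlap, and qHSC 3, lowest for Hspa1a, was again the lowest qHSC (log2 fold change -2.27, SE 0.43, limma adjusted p = 0.0012). Dnajb4, a close relative, held 1058, 997, 1024, 974 and 1520.0 normalized counts in hypHSCs against 2501, 2944, 2197, 3963 and 3123 in qHSCs. It fell with no overlap (log2 fold change -1.39, SE 0.20, limma adjusted p = 0.00017), and Fubp1 covers 13.8% of its exon bases. Dnaja4, named here after its values were seen because its mean lay under 50 normalized counts, was at 0 in hypHSC 1 and 5, at 10.3 to 25.8 in the other hypHSCs and at 47.2 to 109 in qHSCs (log2 fold change -3.69, SE 0.98, limma adjusted p = 0.0089), and shares 49.2% of its stretches of 59 bases with Skic8. Dnaja1, whose product also serves Hsp70, had a log2 fold change of -0.12, and 90.3% of its exon bases lie within the gene Smu1, so without strand their reads cannot be told apart.

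Hspb1, the best known small heat shock protein, was at 561, 112, 54.9, 161 and 148 normalized counts in hypHSCs and at 172, 259.9, 173, 139 and 407 in qHSCs. Only hypHSC 1 stood above the range of the qHSCs, and 2 of the hypHSCs stood below it (log2 fold change -0.48, SE 0.55, limma adjusted p = 0.50). Of its stretches of 59 bases, 58.0% occur also in other genes, mostly a pseudogene. Scaled on Hprt, Pgk1 and Actb it was called lower (-1.41, adjusted p = 0.038).

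**Figure D2:**
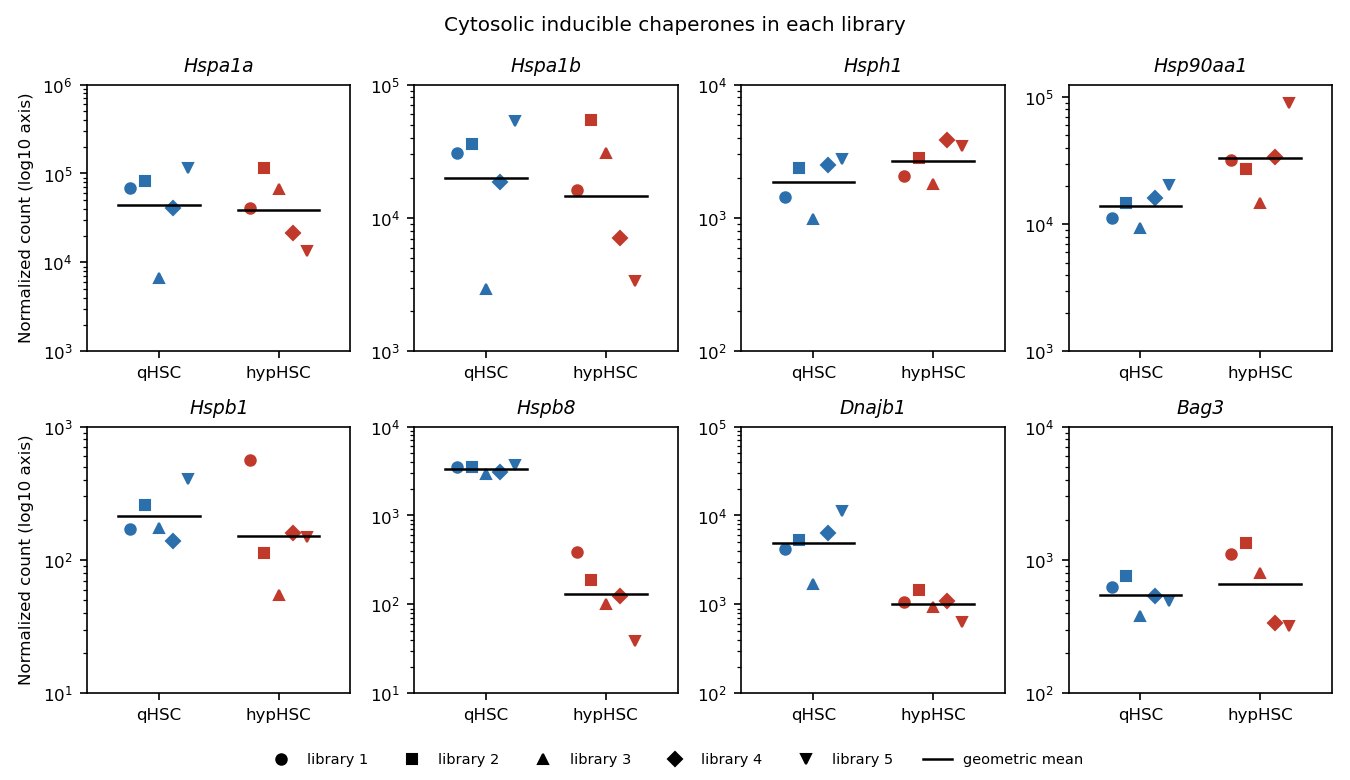
Normalized counts (vertical axis, log10 scale) of 8 cytosolic inducible genes in each of the 5 qHSC (blue) and 5 hypHSC (red) libraries, with a marker for each library number and a black line at the geometric mean of a group. Hspb8 and Dnajb1 separate the groups, whereas Hspa1a and Hspa1b span more than 8-fold within each group.

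Among the constitutive Hsp70, Hsp110 and Hsp90 genes of the cytosol, 1 of 10 rose, 2 fell and 7 were not called, with a median log2 fold change of -0.22. Hspa8 was at 197295, 191996, 128626, 194386 and 182679 normalized counts in hypHSCs and at 107165, 158479, 92286, 187223 and 151317 in qHSCs. Of the hypHSCs, hypHSC 3 stood apart on the low side, and the groups overlapped (log2 fold change 0.39, SE 0.27, limma adjusted p = 0.26). Its transcript shares 72.6% of its stretches of 59 bases with other genes, mostly a pseudogene. Hsp90ab1 was at 94109, 76779, 47309.9, 104682 and 158523 in hypHSCs and at 72769.7, 89383, 84506, 102244 and 103600.0 in qHSCs. The hypHSCs lay on both sides of the qHSCs, and the log2 fold change was -0.01 with a 95% interval of -0.68 to 0.66 (limma adjusted p = 0.99).

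In every hypHSC the ratio of the inducible Hsp90aa1 to the constitutive Hsp90ab1 was higher than in every qHSC. It ran from 0.311 to 0.566 in hypHSCs and from 0.110 to 0.196 in qHSCs, in normalized counts not divided by length, and a ratio within a library does not depend on the scaling. The pair was chosen after its values were seen. Ratios of Bag3 to Hspb8, Hspe1 to Hspd1 and Bag1 to Bag5 also separated the groups. These pairs were not set in advance either. Hspb8, Hspe1, Bag1 and Bag5 each separated the groups alone, so these ratios are no further support. That of Hspa1a to Hspa8 overlapped (0.0728 to 0.602 in hypHSCs and 0.0721 to 0.771 in qHSCs). So did that of Hsp90b1 to Hspa5 (0.356 to 0.779 in hypHSCs and 0.480 to 0.621 in qHSCs). Hspa4, an Hsp110 that exchanges the nucleotide of Hsp70, was the member of this class that rose. It stood at 893, 822, 669, 1240.0 and 1818 normalized counts in hypHSCs and at 291, 314, 377, 364 and 364 in qHSCs. The lowest hypHSC was well above the highest qHSC (log2 fold change 1.58, SE 0.27, limma adjusted p = 0.00055), whereas its relative Hspa4l overlapped between the groups at a log2 fold change of 0.48 (SE 0.33). The call of Hspa4 was lost when scaled on Hprt, Pgk1 and Actb (0.65, adjusted p = 0.17). Those that fell were the divergent Hsp70 genes Hspa12a and Hspa12b, both with means under 50 normalized counts and named after their values were seen. Hspa12a was at 0 in hypHSC 2, 4 and 5, at 6.74 and 4.99 in the others and at 27.7 to 155 in qHSCs. Hspa12b ranged from 0 to 17.5 in hypHSCs and from 18.0 to 63.0 in qHSCs, and shares 52.1% of its stretches of 59 bases with the neighbouring gene Adissp.

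Of the 7 other small heat shock proteins and relatives, 4 were tested, of which 1 fell, none rose, and 3 were not called. Hspb2 held 442, 216, 151, 372 and 306 normalized counts in hypHSCs and 1423, 1448, 1881, 1117 and 1863 in qHSCs. All hypHSCs lay below all qHSCs (log2 fold change -2.45, SE 0.30, limma adjusted p = 5.9e-05). Cryab, the small heat shock protein that is its divergent neighbour on chromosome 9, covers 55.5% of the exon bases of Hspb2 and fell as well, from 26531 to 38289 in qHSCs to 1905 to 6945 in hypHSCs, so reads of both genes cannot be told apart there. Hspb6 was at 0 in hypHSC 5, at 78.2 to 131 in the other hypHSCs and at 90.5 to 157 in qHSCs (log2 fold change -1.49, SE 1.17, limma adjusted p = 0.32). Hspb7, a small heat shock protein known from heart and muscle, did not pass the filter on low values. It was listed at 55.2, 87.0, 39.1, 1.05 and 3.02 normalized counts in hypHSCs and at 0 in all qHSCs, where 3 reads would be at most 2.72. It was singled out after its values were seen. Hspb3 had no read in any library, and Hspb9 did not exceed 41 reads.

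Within the cytosolic and nuclear J proteins, 17 of 22 were tested, 3 rose, 1 fell and 13 were not called, and the median log2 fold change was 0.35. Dnajc2, a J protein of the ribosome that meets nascent chains, was at 86.2, 64.2, 67.4, 119 and 121 normalized counts in hypHSCs and at 28.1, 8.52, 31.5, 15.4 and 15.7 in qHSCs. It rose 4.70-fold without overlap (log2 fold change 2.23, SE 0.46, limma adjusted p = 0.0020), from low levels, and Pmpcb covers 14.0% of its exon bases. Dnajc12, a cochaperone of the aromatic amino acid hydroxylases, held 1816, 1258, 1505, 1910.4 and 2093 normalized counts in hypHSCs and 628, 510.4, 418, 562 and 461 in qHSCs. The lowest hypHSC had 2 times the highest qHSC (log2 fold change 1.72, SE 0.19, limma adjusted p = 3.3e-05), and on the 3 reference genes Hprt, Pgk1 and Actb it was under the fold (0.79).

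Dnajb13, a J protein of cilia and flagella, was at 154, 113, 196, 159 and 78.7 normalized counts in hypHSCs and at 76.9, 31.5, 42.5, 131 and 51.0 in qHSCs. The groups overlapped, with qHSC 4 above hypHSC 2 and 5. Its log2 fold change of 1.18 (SE 0.44, limma adjusted p = 0.047) was called in only 2 of 10 fits that left out a library, those without hypHSC 5 and without qHSC 4, and ranged from 0.96 to 1.46 over all 10. Other settings that ended it were 12 weeks of diet only (1.19), edgeR (1.12), no filter (adjusted p = 0.064), equal totals (0.82) and the 3 reference genes (0.25). Ucp2, a gene of the inner mitochondrial membrane, covers 32.4% of its exon bases and was at 14444 to 33182 normalized counts in hypHSCs and 749.8 to 2800 in qHSCs, and reads of the overlap cannot be told apart without strand. Dnajb2, which helps to clear aggregates and is best known from neurons, fell from 233, 271, 229, 215 and 273 normalized counts in qHSCs to 102, 38.3, 66.5, 69.2 and 174 in hypHSCs. No libraries overlapped (log2 fold change -1.60, SE 0.39, limma adjusted p = 0.0054). Dnajc8, a J protein of the spliceosome, separated the groups with a smaller change, at 3625 to 5324 normalized counts in hypHSCs and 7249 to 8536 in qHSCs (log2 fold change -0.80, SE 0.14, limma adjusted p = 0.00085).

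The ER class had 15 members, all tested, of which 2 rose, 1 fell and 12 were not called, with a median log2 fold change of -0.03. Its main chaperones were not called. Hspa5 was at 180120.0, 198101, 110253, 190016 and 174451 normalized counts in hypHSCs and at 211578, 207383, 191222, 246525 and 234600.0 in qHSCs. Only hypHSC 2 reached the range of the qHSCs, and hypHSC 3 stood far below the others (log2 fold change -0.38, SE 0.25, limma adjusted p = 0.24, exact two-sided permutation p = 0.0159). Rabepk covers 44.5% of its exon bases, at 203 to 473 normalized counts in hypHSCs and 321 to 513 in qHSCs. Hsp90b1 measured 79538, 70484, 44784, 74567 and 135831 in hypHSCs and 131401, 114187, 98759.6, 118220.0 and 122769 in qHSCs. Without hypHSC 5, which topped all qHSCs, the groups would not overlap, and the log2 fold change was -0.62 (SE 0.28, limma adjusted p = 0.093). Both were called lower when libraries were scaled on Hprt, Pgk1 and Actb (-1.32 and -1.56).

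Dnajb9, a J protein of the ER that holds the stress sensor Ire1 in check, was at 1794, 2357, 1122, 3174 and 4308 normalized counts in hypHSCs and at 1988, 3594, 2684, 1980.1 and 4980.5 in qHSCs. Dnajc3, which limits the kinase Perk and serves Hspa5, was at 903, 496, 313, 1237 and 1847 in hypHSCs and at 594, 739.6, 984, 667 and 1246 in qHSCs. For both, hypHSC 3 was the lowest of all libraries and the ranges overlapped, with log2 fold changes of -0.31 (SE 0.37) and -0.03 (SE 0.44). On the 3 reference genes Dnajb9 was called lower (-1.25, adjusted p = 0.038). With Hspa5 and Hsp90b1, Dnajc3 is the third gene with an ER stress element in its promoter, and none of the 3 was called.

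The ER members that were called are all J proteins, as is every member of this class except Hspa5, Hspa13 and Hsp90b1. Dnajb14, an ER membrane J protein that faces the cytosol, rose 7.18-fold, the largest rise among all members tested. It was at 147, 257, 202, 277 and 293 normalized counts in hypHSCs and at 28.1, 18.7, 34.6, 31.7 and 48.7 in qHSCs. The lowest hypHSC held 3.02 times the highest qHSC (log2 fold change 2.84, SE 0.36, limma adjusted p = 8.0e-05). Dnajc10, a disulfide reductase that readies misfolded proteins for removal from the ER, fell to 0.372 of its level. It was at 1776, 1787, 1901, 1777 and 1414 normalized counts in hypHSCs and at 5234, 5651, 3453, 4094 and 5107 in qHSCs. The hypHSCs were close together, with an SD of log2 values under that of all but 2.26% of the genes tested, and far below the qHSCs (log2 fold change -1.43, SE 0.17, limma adjusted p = 5.3e-05). Dnajb11, a soluble partner of Hspa5, was at 1015, 639, 354, 1214 and 1526 normalized counts in hypHSCs and at 326, 404, 513, 391 and 450.3 in qHSCs. In hypHSC 3 it fell among the qHSCs, and in hypHSC 4 and 5 it was highest. Its log2 fold change of 1.03 (SE 0.36, limma adjusted p = 0.034) was called in 3 of 10 fits that left out a library, those without hypHSC 2, hypHSC 3 and qHSC 3, ranged from 0.82 without hypHSC 5 to 1.34 over the 10, and was 0.57 without hypHSC 4 and 5. It was also not called with 12 weeks of diet only (1.07, adjusted p = 0.074), at equal totals (0.68) or on the 3 reference genes (0.0931).

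In the mitochondrial class 1 of 10 members rose and none fell, 9 were not called, and the median log2 fold change was 0.05. Dnajc15, a J protein of the inner membrane that acts at the import motor and the respiratory chain, held 7349, 5678, 5234, 6947 and 5492 normalized counts in hypHSCs and 1503, 1129.8, 1301, 1963 and 1198 in qHSCs. The lowest hypHSC was 2.67 times the highest qHSC. This was the lowest adjusted p of all members, 5.4e-06 in limma, at a log2 fold change of 2.13 (SE 0.19), with the gene on chromosome 14 at chr14:78063655-78112367. Dnajc19, its closest relative at the import motor, had a log2 fold change of 0.38 (SE 0.31) and overlapped.

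The Hsp60 and Hsp10 genes share the promoter with 3 units and act as 1 folding chamber. Hspd1 (Hsp60) was at 13096, 10407, 8381, 10706 and 12378 normalized counts in hypHSCs and at 8259.8, 8999, 7186, 9916 and 8507 in qHSCs. Hspe1 (Hsp10) was at 9449, 7067, 4451, 7493 and 9709 in hypHSCs and at 3468, 3414, 3100.4, 4277 and 4346 in qHSCs. Hspe1 separated the groups, with hypHSC 3 just above the highest qHSC, whereas Hspd1 overlapped through hypHSC 3. Hspe1 had a log2 fold change of 0.997 (SE 0.22, limma adjusted p = 0.0033), just under the fold, and Hspd1 one of 0.35 (SE 0.16, limma adjusted p = 0.10). Hspe1 passed the fold and was called higher in DESeq2 (1.04), with TMM (1.03), in edgeR (1.09), at equal upper quartiles (1.12) and without hypHSC 2 (1.01), hypHSC 3 (1.18), qHSC 4 (1.05) or qHSC 5 (1.06). Relative to Hspd1 in the same library, in counts not divided by length, Hspe1 was 0.531 to 0.784 in hypHSCs and 0.379 to 0.511 in qHSCs. Both share stretches of 59 bases with pseudogenes, 38.1% of those of Hspe1 and 40.7% of those of Hspd1. The mitochondrial Hsp70, Hspa9, was at 2171, 2362, 2745, 3422 and 2936 normalized counts in hypHSCs and at 2457, 2945, 2441, 2627 and 3152 in qHSCs. The groups overlapped, at a log2 fold change of -0.01 with a 95% interval of -0.37 to 0.35 (limma adjusted p = 0.96).

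Of the 9 CCT chaperonin genes, which fold actin and tubulin in a ring of 8 different subunits, 8 were tested, 1 rose and none fell, with a median log2 fold change of 0.09. Cct2 was at 4045, 3965, 2832, 4114 and 6082 normalized counts in hypHSCs and at 2186, 2146, 1929, 2225 and 1739 in qHSCs. It separated the groups at a log2 fold change of 1.004, just past the fold (SE 0.20, limma adjusted p = 0.0015), and was under the fold without hypHSC 5 (0.86), qHSC 3 (0.98) or qHSC 5 (0.95), and without hypHSC 4 and 5 (0.81). It was at 0.65 at equal totals and at 0.0648 on the 3 reference genes (adjusted p = 0.87). The other subunit genes Cct3, Cct4, Cct5, Cct6a, Cct7 and Cct8 lay between -0.21 and 0.35. Tcp1, the remaining subunit of the ring, which the symbols above do not cover, had a log2 fold change of 0.57 (SE 0.14, limma adjusted p = 0.0062). The testis subunit Cct6b was at -1.75 (SE 1.23).

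Bag1 and Bag4 rose among the 5 other BAG cochaperones, and Bag2, Bag5 and Bag6 were not called. Bag1, which links Hsp70 to the proteasome, was at 2461, 1639, 1326, 3937 and 6899.9 normalized counts in hypHSCs and at 598, 806, 567, 598 and 892 in qHSCs. Its hypHSCs spread over 5.21 times, with hypHSC 5 and 4 highest, and all lay above the qHSCs (log2 fold change 1.99, SE 0.40, limma adjusted p = 0.0018). Its call was lost on the 3 reference genes (1.05, adjusted p = 0.096), and Chmp5 covers 16.1% of its exon bases. Bag4, which also binds death receptors, was at 119.9, 144, 121, 146 and 99.8 in hypHSCs and at 39.8, 130.4, 46.5, 17.1 and 37.5 in qHSCs. The hypHSCs were close together, and qHSC 2 stood among them. The log2 fold change of 1.497 (SE 0.49, limma adjusted p = 0.025) lost its call without hypHSC 4 (1.44, adjusted p = 0.051), qHSC 1 (1.47, 0.051), qHSC 4 (1.17, 0.054) or qHSC 5 (1.44, 0.053), and in edgeR (1.29, adjusted p = 0.052). It was lost as well with 12 weeks of diet only (1.45, adjusted p = 0.080), at equal totals (1.15, adjusted p = 0.073) and on the 3 reference genes (0.57, adjusted p = 0.36). Gm17484, which covers 21.3% of the exon bases of Bag4, was also higher in hypHSCs, at 60.5 to 96.5 normalized counts against 5.13 to 66.5. Bag5 was lower in every hypHSC, at 1125 to 1424 against 1999 to 3016, with a change under the fold (-0.88, SE 0.16).

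**Figure D3:**
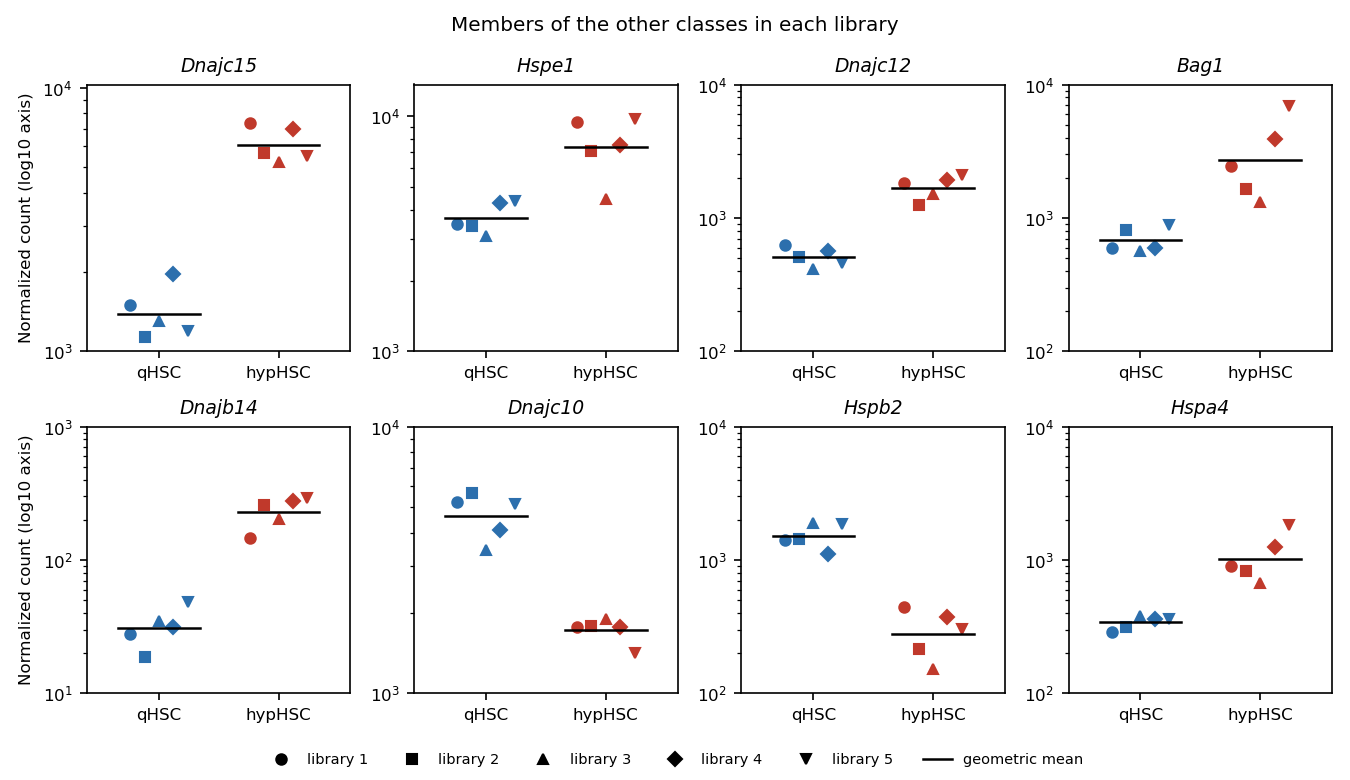
Normalized counts (vertical axis, log10 scale) of 8 members outside the inducible class in each of the 5 qHSC (blue) and 5 hypHSC (red) libraries, with a marker for each library number and a black line at the geometric mean of a group. In all 8 genes the groups are apart, with Dnajc10 and Hspb2 lower and the other genes higher in hypHSCs. The 8 genes are a selection that includes Hspe1, which was not called. The called members Dnajb13, Dnajb11 and Bag4, whose groups overlap, are not shown.

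Summed per length, the classes differed in how far the groups overlapped. The inducible class summed to 21642 to 68435 normalized counts per kilobase in hypHSCs and to 9255 to 71716 in qHSCs. For the other small heat shock proteins 6 of 7 members have a transcript length, and their sum, mostly Hspb2, ran from 234 to 553 in hypHSCs and from 1211 to 1916 in qHSCs, without overlap. With Hspb11, which lacks a length, the sum of normalized counts not divided by length was 1112 to 2883 in hypHSCs and 2575 to 3342 in qHSCs, and overlapped through hypHSC 5. The ER class was at 65678 ± 16819 in hypHSCs and 88719 ± 7747 in qHSCs (SD, n = 5), where hypHSC 5 reached the qHSCs and the other 4 did not. In the mitochondrial class hypHSCs were at 21032 ± 4628 and qHSCs at 13632 ± 1355, and hypHSC 3 lay within the range of the qHSCs. Library hypHSC 3 was the lowest hypHSC in 7 of the 8 classes, and qHSC 3 the lowest qHSC in 5 of the 8.

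**Figure D4:**
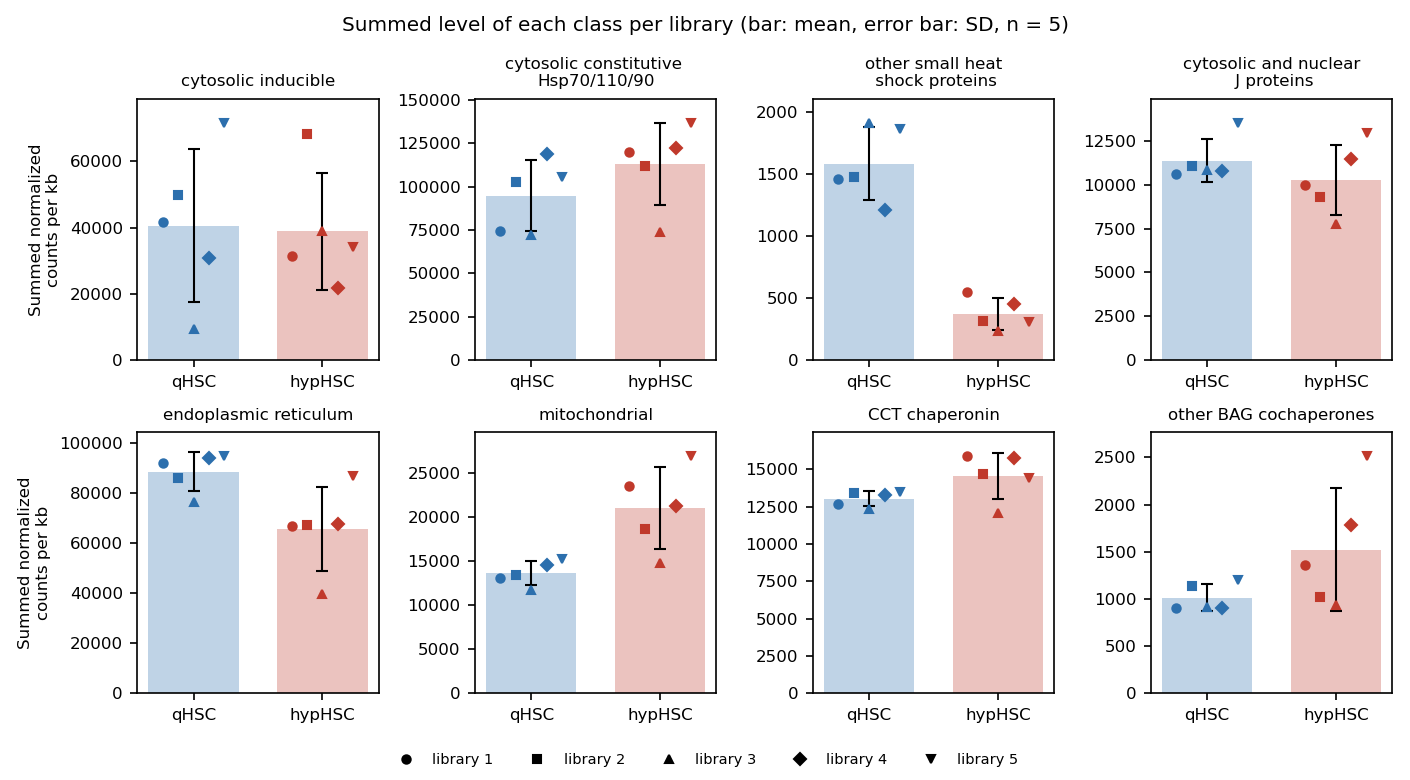
Summed normalized counts per kilobase of transcript (vertical axis, linear from 0) of each of the 8 classes in each library, with bars for the mean of a group and error bars for the SD (n = 5). The other small heat shock proteins, here without Hspb11, are the class whose groups do not overlap, and the inducible class runs from 9255 to 71716 in qHSCs. The former sum is mostly Hspb2, and Cryab, which is not a member, covers 55.5% of the exon bases of Hspb2.

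Genes that work with the members were counted in the same fit. Of 6 heat shock factors and their regulators, none rose, Hsf1 fell (log2 fold change -2.11, SE 0.65, limma adjusted p = 0.019) and 5 were not called. Hsf1 was at 462, 1319.9, 1339.7, 553 and 78.7 normalized counts in hypHSCs and at 1982, 2576, 1980.1, 1924 and 2744 in qHSCs. All hypHSCs lay below all qHSCs, and hypHSC 5, where Hsp90aa1 was highest, was the lowest for Hsf1. Of 25 tested other cytosolic chaperones and Hsp90 cochaperones, 1 rose and 4 fell, with Cryab (-3.23), the Hsp90 regulator Unc45a (-1.76) and the kinase cochaperone relative Cdc37l1 (-1.61) the farthest. Of 20 other ER chaperones and genes of the unfolded protein response, 2 rose and 4 fell. Serpinh1, the collagen chaperone, fell by 3.80 on the log2 scale, the stress sensor Ern1 rose by 2.15 from low levels, and Pdia4, a disulfide isomerase, fell by 1.596. Of 10 other mitochondrial chaperones and proteases, 2 rose (Hscb, the J protein of iron-sulfur cluster assembly, by 1.96, and the protease subunit Afg3l2 by 1.26) and none fell. The median log2 fold changes of these 4 lists were 0.00, -0.23, -0.23 and 0.25, against -0.20 for all genes tested.

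Immediate early genes, which respond to digestion and sorting within minutes, moved in both directions beside the inducible chaperones. Of 18, 2 rose and 3 fell, with a median log2 fold change of -0.56. Socs3 fell by 2.85, Atf3 rose by 2.69 and Fosl1 rose by 2.32. The summed level of the list was 122863 to 225891 normalized counts in hypHSCs and 130973 to 381333 in qHSCs. In hypHSCs this sum ranked all libraries in the same order as Hspa1a and Hspa1b, from hypHSC 2 down to hypHSC 5. Among qHSCs it was lowest in qHSC 3, as were both genes, but highest in qHSC 4, the second lowest for both. The part of these genes in the levels of Hspa1a and Hspa1b was not tested.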

How the data were processed

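The table the authors deposited holds 1 signal for each gene and library, the normalized count. Per the labels and the study's methods, the authors sequenced libraries made without strand orientation, mapped reads to mm39 with STAR, counted them with featureCounts of Subread (1.5.0) and divided the counts by DESeq2 size factors (0.661 to 1.20 in hypHSCs, 1.10 to 1.33 in qHSCs). All values (100%) lay within 0.006 normalized counts, plus 1e-06 of the value, of a whole number of reads, and 3 reads equal 2.25 to 4.54 normalized counts. This floor covers counting error only. The 37089 entries without a symbol were left out.

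Genes that reached 10 normalized counts in 5 or more libraries were compared with limma 3.58.1 (lmFit, eBayes with trend, R 4.3.3) on log2(value + 1), with Benjamini-Hochberg adjustment, and single genes also with exact two-sided permutation tests over 252 arrangements, whose smallest p is 0.00794. Fold changes on this scale understate the change of low genes. DESeq2 1.42.0 and edgeR 4.0.16 on recovered reads were alternatives. The fit was tested on simulated data. Members, classes and lists were chosen with earlier results of these data known. Per-library values are given for 16 core members and, in each class, up to 3 largest rises and falls among called members with a mean of at least 50, and for related lists up to 3 called genes. Transcript lengths, overlaps and promoters were taken from GRCm39 and GENCODE vM39, where 88 of 89 members matched (not Hspb11). Lengths are those of the canonical transcript.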

Additional observations from a re-analysis of the deposited data

Results flagged for a closer look

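Of 64 groups checked (31 members and the sum of Hspa1a and Hspa1b, in both groups), 7 had a library far from the other 4, where chance flags about 1 in 20 groups. Library hypHSC 5 was far above the other hypHSCs for Hsp90aa1 (89748 normalized counts) and Dnajb4 (1520.0) and far below them for Dnajc10 (1414). Library hypHSC 3 was far below the other hypHSCs for Hspa8 (128626) and Hspa5 (110253). Hspb1 was far higher in hypHSC 1 (561) than in the other hypHSCs, and Bag4 far higher in qHSC 2 (130.4) than in the other qHSCs. These are values of single libraries and their causes were not tested.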

How the results depend on the processing

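Neither the pseudocount (0.5 or 5), nor including entries without a symbol, nor DESeq2, edgeR, TMM or upper-quartile scaling moved the counts of called members by over 1.5 times. The number called higher moved to 7 with the hypHSCs of 12 weeks of diet only, 6 at equal totals and 3 on the 3 reference genes, and the number called lower to 15 and 28 under the last pair of scalings. Over all genes tested, the numbers called higher in these settings were 2409, 2013 and 1472, against 2602 in the main fit. Those called lower were 4243 and 7020 under the last pair, against 3177. Leaving out 1 library gave 7 to 12 higher, lowest without qHSC 1, and 9 to 11 lower, beside 2432 to 2716 and 2809 to 3286 of all genes tested. The sum of Hspa1a and Hspa1b ranged from -0.95 to 0.16 and was 0.61 without hypHSC 4 and 5 (Hspa1a 0.62, Hspa1b 0.58). Members not called changed sign as follows. Hsp90ab1 was at 0.0397 at 12 weeks, 0.0893 in DESeq2, 0.0291 with TMM, 0.16 in edgeR and 0.12 at upper quartiles, and Dnajc3 at 0.13, 0.18, 0.00322, 0.26 and 0.0897 and Hspa9 at 0.16, 0.00156, 0.0270, 0.0717 and 0.11 in the same order. Bag3 was at -0.30 at 12 weeks, -0.0697 at equal totals and -0.65 on the reference genes. Hspd1 was at -0.00589 at equal totals and -0.59 on the reference genes, where Hspa8 was at -0.55 and Hsph1 at -0.41. When 1 library was left out, Hspa1a ranged from -0.88 to 0.20, Hspa1b from -1.16 to 0.0591, Hsp90ab1 from -0.21 to 0.22, Dnajc3 from -0.34 to 0.30 and Hspa9 from -0.10 to 0.0680. Of 763 values of single genes, 657 kept direction and side of the threshold. With the replicate block, 9 members were higher and 9 lower, beside 2557 and 3229 of all genes tested, and Dnajb13 (adjusted p = 0.058) and Dnajb11 (0.052) lost their calls. The labels share numbers 1 to 5, but the deviations of libraries with the same number correlated at 0.00815 to 0.129, so the numbers were not taken as pairs. Depth limits members near 3 reads, which are 2.25 to 4.54 normalized counts.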
